A study of Mus musculus with 2 samples.

Results

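Cells rich in transcripts of the primary granule genes *Elane*, *Mpo* and *Prtn3* were described in single-cell RNA libraries of the omentum of mice, the apron of abdominal fat whose lymphoid clusters are known as milky spots. Cells were chosen by the measured levels of 4 genes: a summed level of *Elane*, *Mpo* and *Prtn3* of 20 or more transcripts per 10000, and a level of *Jchain*, the immunoglobulin joining chain gene of plasma cells, below 49.9. The choice gave 293 of the 14414 cells with 200 to 7500 detected genes, 98 of 8680 in the wild-type (WT) library and 195 of 5734 in the *Postn*-DTR library. *Postn*-DTR mice carry the human diphtheria toxin receptor in the *Postn* gene, so that diphtheria toxin (DT) removes *Postn*-expressing stromal cells, whereas WT mice lack the receptor. Both groups had received DT 5 days earlier, and the design compares the omental leukocytes that remained. *Postn* is also active in mesenchymal cells of other organs, bone included, and whether DT removed such cells was not measured in these libraries. Mice were pooled within a group, so each group is 1 sample with no replicate check. No test between groups was possible, and the intervals below cover counting error only and not differences between mice.

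Primary, or azurophil, granules are the first granules that a neutrophil precursor makes. They are filled in promyelocytes with serine proteases such as neutrophil elastase, proteinase 3 and cathepsin G (*Elane*, *Prtn3*, *Ctsg*) and with myeloperoxidase (*Mpo*), which makes hypochlorous acid. Later stages switch these genes off, fill secondary granules (*Camp*, *Ltf*, *Ngp*), stop dividing and accumulate *S100a8* and *S100a9*. Precursors of monocytes share the primary granule genes at lower levels and use the transcription factor *Irf8*. Such precursors are typical of bone marrow.

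In the GRCm38 assembly (mm10), *Elane* (ENSMUSG00000020125) lies on chromosome 10 from 79886247 to 79888215 and *Prtn3* (ENSMUSG00000057729) on the same strand from 79874476 to 79883174, with 3072 bases between them. *Mpo* (ENSMUSG00000009350) lies on chromosome 11 from 87793581 to 87804413. The promoters of the 3 genes that define the cells are shown as RefSeq windows of GRCm38.p6, each 5′ to 3′ on the plus strand and reaching 50 bases past the start site. The RefSeq starts used for the windows differ from those of the GENCODE annotation. The *Prtn3* window therefore starts inside the gene span given above, and the *Elane* and *Mpo* windows reach more than 50 bases into theirs. The windows are chr10:79886062-79886361 for *Elane*, chr10:79879417-79879716 for *Prtn3* and chr11:87793534-87793833 for *Mpo*. Capitals mark GAGGAA, a core bound by PU.1, a factor of all myeloid cells.
Elane: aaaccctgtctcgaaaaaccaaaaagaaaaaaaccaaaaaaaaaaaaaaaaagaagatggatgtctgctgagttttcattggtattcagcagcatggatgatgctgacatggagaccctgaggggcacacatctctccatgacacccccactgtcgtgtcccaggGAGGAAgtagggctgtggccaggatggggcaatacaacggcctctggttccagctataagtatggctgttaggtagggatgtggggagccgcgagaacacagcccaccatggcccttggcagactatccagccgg
Prtn3: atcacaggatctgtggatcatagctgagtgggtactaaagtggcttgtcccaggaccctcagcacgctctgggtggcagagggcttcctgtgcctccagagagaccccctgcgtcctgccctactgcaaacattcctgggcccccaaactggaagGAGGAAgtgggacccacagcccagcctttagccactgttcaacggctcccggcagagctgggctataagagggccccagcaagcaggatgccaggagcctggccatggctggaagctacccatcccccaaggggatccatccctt
Mpo: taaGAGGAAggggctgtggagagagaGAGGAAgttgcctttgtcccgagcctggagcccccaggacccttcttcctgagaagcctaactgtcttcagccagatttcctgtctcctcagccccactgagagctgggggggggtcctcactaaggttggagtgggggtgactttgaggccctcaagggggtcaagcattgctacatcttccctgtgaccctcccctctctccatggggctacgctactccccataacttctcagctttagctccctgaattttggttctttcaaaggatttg
*Elane* and *Prtn3* each held 1 GAGGAA and *Mpo* held 2, searched on both strands, against 28.3% of 32851 RefSeq promoters of this length with at least 1. The MYB core AACNG occurred 2, 3 and 1 times in the same order (80.3% of all promoters), and the C/EBP letters TTNNGNAA were in none of the 3 windows (40.7% of all promoters). These letters were chosen with the sequences in view, and a match is only a description.

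As granulocyte precursors the chosen cells were mixed. Transcripts (unique molecular identifiers, UMIs) of all 3 genes were present in 97 of 98 WT cells and in 155 of 195 *Postn*-DTR cells, 252 of the 293, called complete below. This split was chosen after the data had been seen. Of the complete cells, 30 in WT and 61 in *Postn*-DTR held monocyte genes, with mean levels of the granulocyte factors *Cebpe* and *Gfi1* of 0.32 or less, and 2 in WT held basophil and mast cell genes with few *Elane* transcripts, as described below. Beyond the 3 chosen genes, the genes with the highest ratio of the level in complete WT cells to that in all other WT cells were *Ctsg* (31.5 against 0.0209 UMIs per 10000) and *Ms4a3* (12.4 against 0.0235), a membrane protein gene of granulocyte and monocyte progenitors. Next were the unnamed transcript *Gm11505* (5.13 against 0.00129) and *Prss57* (3.05 against 0.00808), another granule protease. *Gstm1*, *Fcnb*, *Cd63*, *Gatm*, *F630028O10Rik* and *Alas1* followed. All of them are measures on the cells that the rule chose, and they are given as a description.

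The other 40 *Postn*-DTR cells went against the name. All 40 lacked *Mpo*, and 31 held *Prtn3* alone, with a median *Prtn3* level of 27.6 and a range of 20.2 to 57.1. They were shallower than the complete *Postn*-DTR cells, with a median of 9017 UMIs and 2345.5 genes against 30365 UMIs and 5103 genes. Of 8 macrophage markers (*Adgre1*, *C1qa*, *C1qb*, *C1qc*, *Gata6*, *Timd4*, *Mertk*, *Apoe*), 26 of the 40 cells (65%) held 4 or more, and the median cell held 5. Their summed macrophage marker level ranged from 0 to 497 with a median of 206, whereas the median was 0 in complete cells of both libraries. *Apoe*, a lipid carrier, stood at 171 in them, the acute phase gene *Saa3* at 161, *Alox15*, a lipoxygenase of resident peritoneal macrophages, at 24.9, and the complement gene *C1qb* at 22.4. In complete cells *Apoe* was at 0.441 in WT and 0.156 in *Postn*-DTR, and *Alox15* at 0 in both. Only 1 of 97 complete WT cells and 1 of 155 complete *Postn*-DTR cells held 4 or more macrophage markers.

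**Figure D1:**
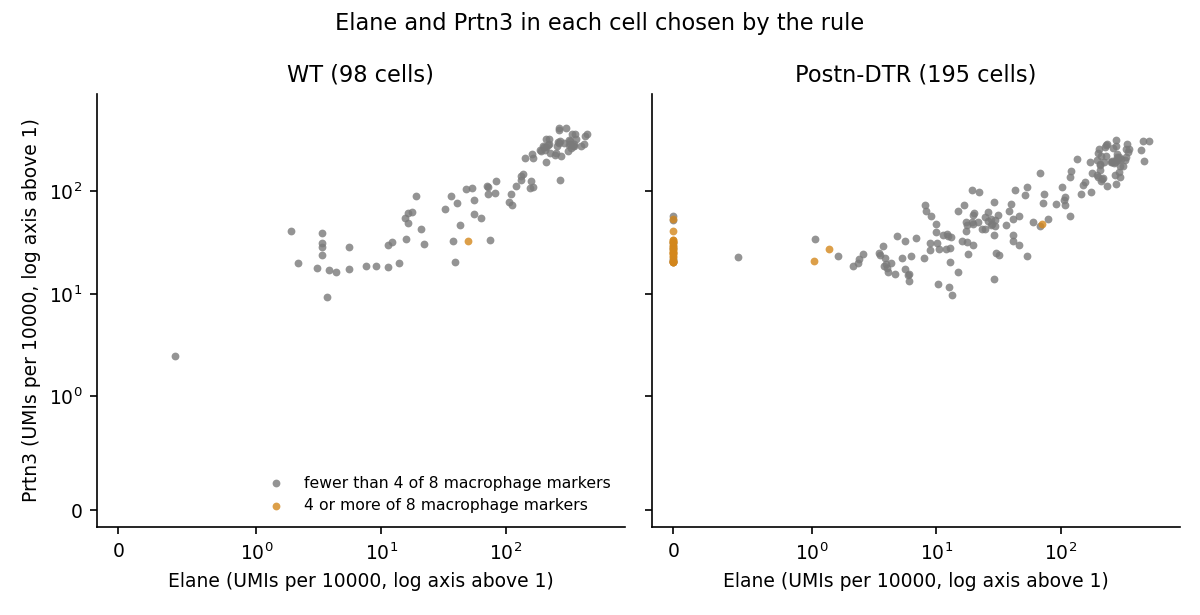
Level of *Elane* against level of *Prtn3* in each chosen cell (UMIs per 10000, linear below 1 and logarithmic above), for the 98 WT and the 195 *Postn*-DTR cells. Orange points hold 4 or more of 8 macrophage markers. The *Postn*-DTR panel has a column of cells at 0 *Elane* with *Prtn3* between 20.2 and 57.1, most of them orange, which the WT panel lacks.

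*Prtn3* was also found in macrophage-type cells beyond those that the rule chose. The set taken here still includes the chosen cells with 4 or more markers, 1 in WT and 27 in *Postn*-DTR. The *Prtn3* values of this set are thus in part fixed by the rule. Among all cells with 4 or more of the 8 markers and *Jchain* below the limit, 26 of 195 in WT (13.3%, exact 95% interval 8.90 to 18.9) and 169 of 303 in *Postn*-DTR (55.8%, 50 to 61.5) held a *Prtn3* UMI, at mean levels of 0.626 and 7.09. *Elane* was in 1.54% and 3.96% of them, and *Mpo* in 2.05% and 2.97%. T cells, which should lack these genes, held *Prtn3* in 1.51% of WT and 3.13% of *Postn*-DTR cells *Elane* in 1.70% and 4.24%, and *Mpo* in 0.642% and 1.79%. The *Elane* shares of the macrophage-type cells were therefore at the level of background, whereas the *Mpo* shares, of 4 and 9 cells, were somewhat above the T cell values with wide intervals (0.562 to 5.17 for the WT share and 1.37 to 5.56 for the other). The *Prtn3* shares were far above them. With each cell thinned to 2000 UMIs, 4.42% of 181 WT and 51.2% of 250 *Postn*-DTR macrophage-type cells held *Prtn3*, beside 0.690% and 1.39% of T cells. Within these cells, chosen cells included and without thinning, *Prtn3* went with *Alox15*. Among all chosen cells *Alox15* was in 0 WT and 28 *Postn*-DTR cells, so the *Postn*-DTR counts are in part fixed by the rule. The part of depth in these counts was not tested. *Prtn3* was in 17 of 28 WT cells with *Alox15* (60.7%) and in 123 of 130 such *Postn*-DTR cells (94.6%), and in 9 of 167 (5.39%) and 46 of 173 (26.6%) without it. *Alox15* itself was in 14.4% and 42.9% of the macrophage-type cells. The *Prtn3* signal of the incomplete cells therefore came with a macrophage profile in most of them, and the results below are given for complete cells, with all chosen cells beside them where the value moves.

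The chosen cells made up 1.13% of the WT library (0.918 to 1.37) and 3.4% of the *Postn*-DTR library (2.95 to 3.90), a ratio of 3.01 (approximate 95% interval 2.37 to 3.83). Complete cells made up 1.12% and 2.70%, a ratio of 2.42 (1.88 to 3.11). The WT cell nearest above the threshold had a sum of 21.5 and the nearest below 18.7, and the *Postn*-DTR ones had 20.2 and 19.9. In the band from 20 to 40, 11 of 12 WT cells but only 23 of 58 *Postn*-DTR cells were complete, and from 100 upwards every cell of both libraries was. The ratio of the shares fell as the threshold was raised, from 3.95 (3.21 to 4.86) at 10 to 2.41 at 40, 1.92 (1.41 to 2.63) at 100 and 1.72 (1.18 to 2.5) at 300, and for complete cells alone it fell as well, from 2.51 at 10 to 2.32 at 40, 1.92 at 100 and 1.72 at 300. The share of T cells differed between the libraries as well, with 3113 WT and 448 *Postn*-DTR cells, and a share of all cells cannot tell more precursors from fewer other cells. In cells with a UMI of *Ptprc*, the gene of the leukocyte antigen CD45, the chosen cells were 1.12% and 3.65%.

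**Figure D2:**
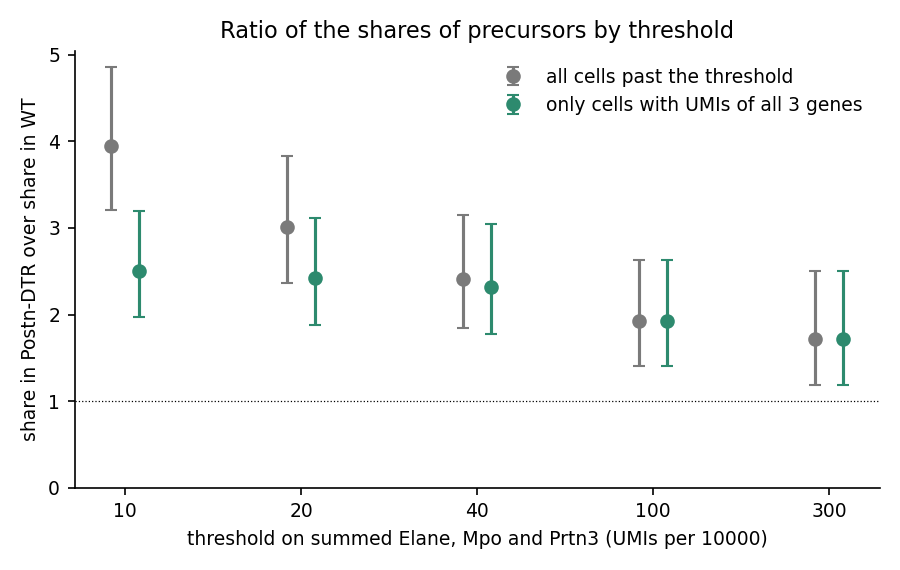
Ratio of the share of precursors in *Postn*-DTR to that in WT (vertical axis, with approximate 95% counting intervals) at 5 thresholds on the summed level of *Elane*, *Mpo* and *Prtn3*. For all cells past the threshold (grey) the ratio goes from 3.95 at 10 to 1.72 at 300, and for cells with UMIs of all 3 genes (green) from 2.51 to 1.72.

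The later neutrophil stages were also a larger part of the *Postn*-DTR library. Cells outside the rule with 20 or more UMIs per 10000 of *Camp*, *Ltf* and *Ngp* together were 248 in WT (2.86%) and 465 in *Postn*-DTR (8.11%), a ratio of 2.84 (2.44 to 3.30). Cells outside both with 200 or more of *S100a8* and *S100a9* were 40 (0.461%) and 374 (6.52%), a ratio of 14.2 (10.2 to 19.6). Of all these cells and the complete precursors together, the complete precursors were therefore 25.2% in WT and 15.6% in *Postn*-DTR, a ratio of 0.619 (0.494 to 0.775). They include the 30 WT and 61 *Postn*-DTR cells with monocyte genes, which are not neutrophil-type by their factors. Shares without those cells were not taken. Of the complete precursors and the secondary granule cells together, the complete precursors were 28.1% and 25%, a ratio of 0.889 (0.716 to 1.10) whose interval includes 1. With the monocyte-gene cells counted, the lower share among all these cells went with the *S100a8* and *S100a9* cells.

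Complete precursors were deep in both libraries. The median depth was 40195 UMIs for WT cells and 30365 for *Postn*-DTR cells, and the median number of detected genes 5921 and 5103. The median summed level of the 3 chosen genes was 328 in WT and 130 in *Postn*-DTR. Mean levels were 150 against 114 for *Elane*, 160 against 103 for *Prtn3*, 89.2 against 61.8 for *Mpo* and 31.5 against 23.5 for *Ctsg*. The spread over cells was wide, with *Elane* from 0.409 to 450.2 (median 132) in WT and from 0.468 to 510 (median 41.6) in *Postn*-DTR. The lower averages did not mean lower peaks, since the highest *Elane* and *Mpo* cells were in *Postn*-DTR (*Mpo* 252 against 212).

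The spread went with 2 other programs, and the complete cells were divided by these after the data had been seen. Cells with a summed *Camp*, *Ltf* and *Ngp* level of 20 or more formed a secondary granule range, cells below it with a sum of *Csf1r*, *Ly86* and *F13a1* of 5 or more a monocyte-gene range, and the rest a range with neither. *Csf1r* is the receptor for macrophage colony-stimulating factor, *Ly86* a partner of a Toll-like receptor relative and *F13a1* a transglutaminase of monocytes. These are ranges of measured levels, not cell types. The cut on monocyte genes passed through a populated zone, with 7 of 69 WT and 32 of 94 *Postn*-DTR cells between 2.5 and 10, and 8 cells in each library lay between 10 and 40 on the secondary granule sum.

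The range with neither program held 39 WT and 33 *Postn*-DTR cells, 40.2% (30.4 to 50.7) and 21.3% (15.1 to 28.6) of the complete cells. The ratio of these shares was 0.530 (0.359 to 0.781). As a share of all cells it was 0.449% and 0.576%, a ratio of 1.28 (0.807 to 2.03) whose interval includes 1. With the monocyte limit at 2.5 that ratio was 0.865 and with the limit at 10 it was 1.87, so its direction depends on the cut. The monocyte-gene range held 30 and 61 cells, 0.346% and 1.06% of all cells, a ratio of 3.08 (1.99 to 4.76). The secondary granule range held 28 and 61 cells, a ratio of 3.30 (2.11 to 5.15). Thinned to 2000 UMIs, a UMI of *Csf1r*, *Ly86* or *F13a1* was found in 38.1% of complete WT and 50.3% of complete *Postn*-DTR cells, a ratio of 1.32 (0.979 to 1.78), beside 4.34% and 1.62% of T cells.

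**Figure D3:**
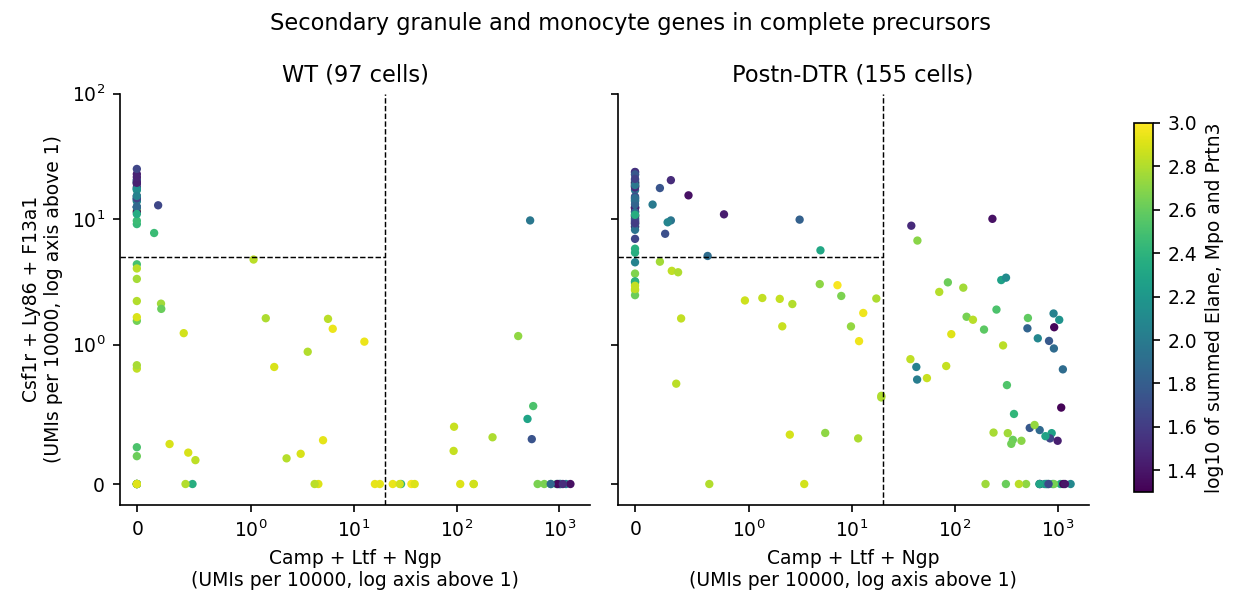
Summed *Csf1r*, *Ly86* and *F13a1* against summed *Camp*, *Ltf* and *Ngp* in each complete precursor (UMIs per 10000, linear below 1 and logarithmic above), coloured by the log10 of the summed primary granule genes. Dashed lines mark the limits of 5 and 20. The upper left corner holds 30 WT and 61 *Postn*-DTR cells of low primary granule sum, the lower left 39 and 33 cells of high sum, and the right side 28 and 61 cells.

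The primary granule genes separated the ranges in both libraries. *Elane* stood at 227 in WT and 250 in *Postn*-DTR in the range with neither, at 27.1 and 21.9 in the monocyte-gene range and at 176 and 132 in the secondary granule range. *Mpo* stood at 146 and 159, 35.1 and 16.6, and 68.2 and 54.5. *Prtn3* stood at 240 and 210, 56.9 and 46.8, and 161 and 102. Within the range with neither, none of the 16 listed primary granule genes was 2-fold apart, where 0.460% of all 3696 ranked genes were 2-fold higher and 0.893% lower, so that count says nothing particular about them. The lower averages over all complete cells went both with the larger share of *Postn*-DTR cells in the other 2 ranges and with lower levels within ranges, such as *Prtn3* in the secondary granule range and *Mpo* in the monocyte-gene range.

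Transcription factors of the lineages were placed as the ranges are named. *Irf8*, which directs monocyte fate, was at 5.74 in WT and 2.94 in *Postn*-DTR in the monocyte-gene range and at 0.19 or less in the other 2 ranges. *Cebpe*, needed for secondary granules, was at 5.68 and 6.20 in the secondary granule range, at 1.82 and 2.64 in the range with neither, and at 0.05 and 0.32 in the monocyte-gene range. *Gfi1*, a repressor needed for neutrophils and mutated in some congenital neutropenias, was at 0.78 and 0.95 in the range with neither and at 0.04 in both libraries in the monocyte-gene range. Of 15 ranked factors in the complete cells, 8 were above and 7 below 0 (*Cebpd* turned sign with the scaling), with none past 2-fold. Over all ranked genes 0.587% were 2-fold higher and 0.478% lower. A gene was ranked when it had at least 100 UMIs over both libraries in at least 10 of the cells compared, and log2 ratios are of *Postn*-DTR over WT with 0.1 UMIs per 10000 added to both levels.

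The ranked genes of the stem and progenitor list had lower levels in *Postn*-DTR, few of them by 2-fold. Of 30 genes in the list, 12 were ranked in complete cells and all 12 were below 0 (*Lyl1* turned sign with the scaling), with a median log2 ratio of −0.60 beside −0.03 over all 7323 ranked genes. Past 2-fold lower were 2 of the 12, *Sox4* and *Cd34*, where 0.478% of all ranked genes were 2-fold lower and 0.587% higher. The summed level of the list was 10.1 in WT and 5.58 in *Postn*-DTR (log2 −0.85). Over all chosen cells it was 10.0 and 5.22 (−0.94). The list holds genes that lymphocytes use too, such as *Cd27* and *Ly6a*, and its sum in T cells was 10.8 and 15.5.

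*Cd34*, a surface sialomucin of stem and progenitor cells (chromosome 1, 194938819 to 194961279), was found in 29 of 97 complete WT cells with 108 UMIs and in 13 of 155 *Postn*-DTR cells with 26 UMIs, at mean levels of 0.250 and 0.0377. *Sox4*, a transcription factor of progenitors (chromosome 13, 28948919 to 28953713), was found in 37 WT cells with 167 UMIs and in 13 *Postn*-DTR cells with 26 UMIs (levels 0.433 and 0.0354). *Kit*, the stem cell factor receptor (chromosome 5, 75574916 to 75656722), was in 61 and 59 cells (0.431 and 0.258). *Myb*, needed for proliferation of progenitors (chromosome 10, 21124935 to 21160984), was in 80 and 105 cells (2.09 and 1.07). Most cells of both libraries held 0 UMIs of *Cd34* and of *Sox4*, so the groups overlap, and the difference lay in how many cells held a UMI and in the highest WT values (*Sox4* up to 8.20 in WT and 0.946 in *Postn*-DTR).

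Complete WT cells were deeper, so shares were also taken at equal depth. Thinned to 2000 UMIs, few cells kept a UMI and no difference was detectable, since the interval of each ratio included 1. *Cd34* was in 3 of 97 WT and 3 of 155 *Postn*-DTR cells (ratio 0.626, 0.129 to 3.04), *Sox4* in 5 and 2 cells (0.250, 0.0495 to 1.26), *Myb* in 26 and 28 cells (0.674, 0.421 to 1.08), and *Kit* in 4 and 8 cells, in the other direction (1.25, 0.387 to 4.05). The cells were then thinned to 10000 UMIs, a depth chosen after the data had been seen, which left out 1 WT cell. At that depth *Cd34* was in 14 of 96 WT cells (14.6%) and 6 of 155 *Postn*-DTR cells (3.87%), a ratio of 0.265 (0.106 to 0.667). *Sox4* was in 22.9% and 1.29%, a ratio of 0.0563 (0.0135 to 0.234). *Kit* was in 30.2% and 17.4% (0.577, 0.365 to 0.912) and *Myb* in 71.9% and 50.3% (0.700, 0.573 to 0.855). In the T cells deep enough for this, 311 in WT and 45 in *Postn*-DTR, the WT shares were 3.22% for *Cd34*, 4.18% for *Sox4* and 4.82% for *Kit*. The *Postn*-DTR T cell shares of these 3 genes were 0, which allows up to 6.67%. The *Postn*-DTR shares of *Cd34* and *Sox4* in precursors were thus at or below what the T cells allow and cannot be told from background, whereas the WT shares were above it.

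By the mean sum of the list, the ranges shared the direction but not the size. In the range with neither, the summed list was 14.8 in WT and 10.4 in *Postn*-DTR (−0.51), in the monocyte-gene range 8.44 and 4.04 (−1.06), and in the secondary granule range 5.23 and 4.52 (−0.21). Median sums per cell were 12.4 and 9.83, 6.12 and 3.12, and 3.97 and 4.25. The median of the secondary granule range thus went the other way. Above 0 were 1 of 7 ranked genes in the range with neither, 0 of 5 in the monocyte-gene range and 1 of 5 in the secondary granule range. In the range with neither, *Sox4* was in 19 of 39 WT and 6 of 33 *Postn*-DTR cells (0.64 and 0.11) and *Cd34* in 13 and 3 cells (0.22 and 0.06), but *Kit* was at 0.66 and 0.65, and every cell of both libraries held *Myb* (3.72 and 3.08). In the monocyte-gene range *Cd34* was in 16 of 30 and 10 of 61 cells (0.52 and 0.06), *Sox4* in 15 and 7 cells (0.54 and 0.03), *Kit* was at 0.20 and 0.05 and *Myb* at 1.21 and 0.40 (−1.40). In the secondary granule range *Cd34* was at 0 in both libraries, and *Kit* stood at 0.37 and 0.25. *Cdk6*, a cyclin-dependent kinase of early progenitors, was lower in *Postn*-DTR in every range (2.90 and 2.26, 1.42 and 0.88, 1.08 and 0.84), and so was *Lmo2*, a haematopoietic transcription cofactor (2.04 and 1.60, 1.37 and 0.72, 0.92 and 0.87). Genes of earlier stem cells were near absent, with *Mecom* at 0 in all complete cells and 1 and 2 UMIs of *Procr*.

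**Figure D4:**
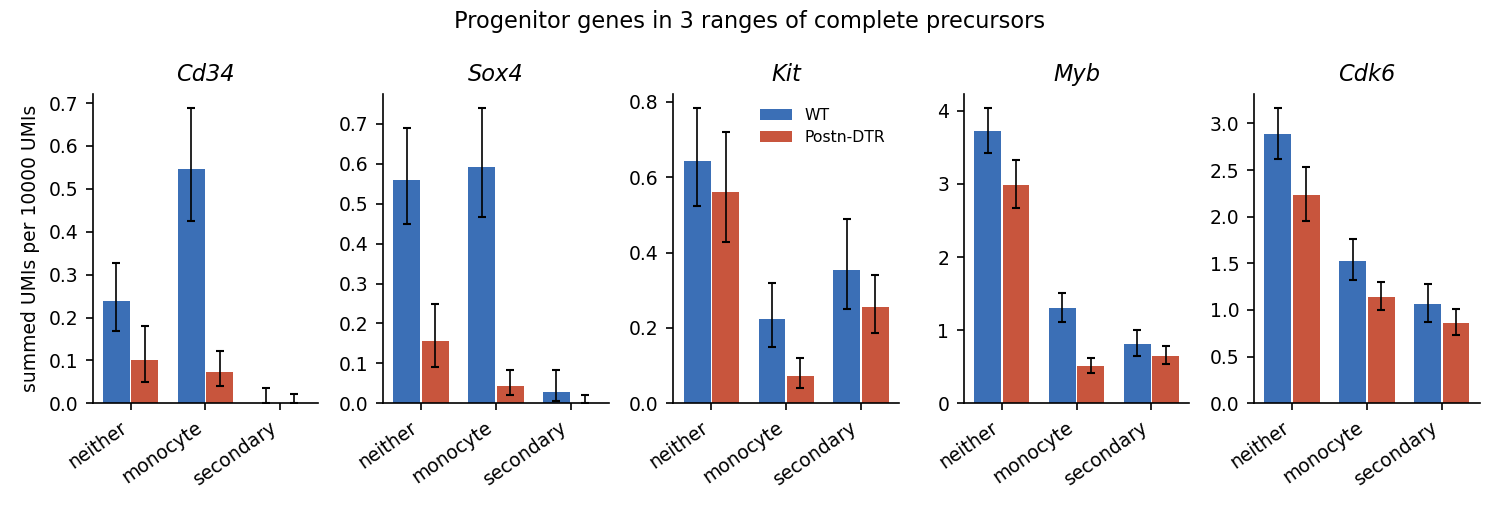
Summed UMIs of *Cd34*, *Sox4*, *Kit*, *Myb* and *Cdk6* per 10000 UMIs of all complete cells in each range (bars, WT blue and *Postn*-DTR red, with exact Poisson 95% intervals for counting error). *Cd34* and *Sox4* stand lower in *Postn*-DTR in the range with neither program and in the monocyte-gene range, and *Kit* is about level in the range with neither.

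Of the WT cells in the range with neither, 2 held *Prss34* and *Cpa3*, proteases of basophils and mast cells. They carried all 1945 *Prss34* UMIs of the complete WT cells, 220 of 245 of *Cpa3*, 237 of 249 of the basophil protease *Mcpt8* and 95 of 101 of *Gata2*, a factor of stem cells, basophils and mast cells. Their primary granule UMIs were 523 of *Mpo*, 15 of *Elane* and 42 of *Prtn3*. No *Postn*-DTR cell held both genes. Without these 2 cells the stem list of the range with neither was 13.1 in WT beside 10.4 in *Postn*-DTR (−0.33), and *Sox4* in WT was 0.43.

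Cycling was frequent in complete precursors of both libraries. After thinning to 2000 UMIs, 68.0% of WT and 72.3% of *Postn*-DTR cells held *Mki67* or *Top2a*, a proliferation antigen and a DNA topoisomerase of dividing cells (ratio 1.06, 0.898 to 1.26), whereas 6.04% and 9.95% of T cells did. Before thinning, *Mki67* was in 94 of 97 and 152 of 155 cells. The summed level of 42 S phase genes was 46.5 in WT and 45.9 in *Postn*-DTR (log2 −0.02), and that of 52 G2/M phase genes was 83.7 and 93.8 (0.16). Single genes spread more widely, with log2 ratios from −0.45 to 0.36 for ranked S phase genes and from −0.37 to 0.72 for ranked G2/M genes. *Mki67* was at 4.04 and 4.25, *Top2a* at 4.26 and 3.39, the replication clamp *Pcna* at 2.12 and 2.13 (a sign that turns with the scaling) and *Hmgb2* at 19.1 and 24.7. None of the 42 ranked S phase genes and none of the 50 ranked G2/M genes was 2-fold apart, beside 0.587% of all ranked genes higher and 0.478% lower, so these counts are near the background.

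Over all chosen cells the sums were 46.5 and 37.8 for S phase (−0.30) and 83.6 and 79.4 for G2/M (−0.07). The G2/M direction turned on summed UMIs (0.11), with TMM scaling (0.19) and with totals without immunoglobulin, mitochondrial and ribosomal protein genes (0.12), and the S phase value was −0.10, −0.026 and −0.10 under the same settings. The incomplete *Postn*-DTR cells had S phase and G2/M sums of 6.54 and 23.6, beside 12.3 and 21.5 in T cells. Only 4 of 34 incomplete cells held *Mki67* or *Top2a* after thinning. Without the incomplete cells the S phase value was −0.02 and the G2/M value 0.16, as given above.

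By range, S phase sums were 44.2 and 40.6 in the range with neither, 53.3 and 49.1 with monocyte genes and 42.3 and 45.5 with secondary granule genes. G2/M sums were 64.7 and 65.8, 99.3 and 103, and 93.5 and 99.3. The thinned share with *Mki67* or *Top2a* was 48.7% and 54.5% in the range with neither, 76.7% and 72.1% with monocyte genes and 85.7% and 82.0% with secondary granule genes. In both libraries the range with the highest primary granule levels thus had the smallest mean G2/M sum. Secondary granule cells outside the rule, which no longer hold primary granule transcripts at the threshold, had S phase sums of 7.11 and 9.45 and thinned shares of 22.9% and 25.2%. The *S100a8* and *S100a9* cells had S phase sums of 4.46 and 1.94 and thinned shares of 6.06% and 1.13%.

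**Figure D5:**
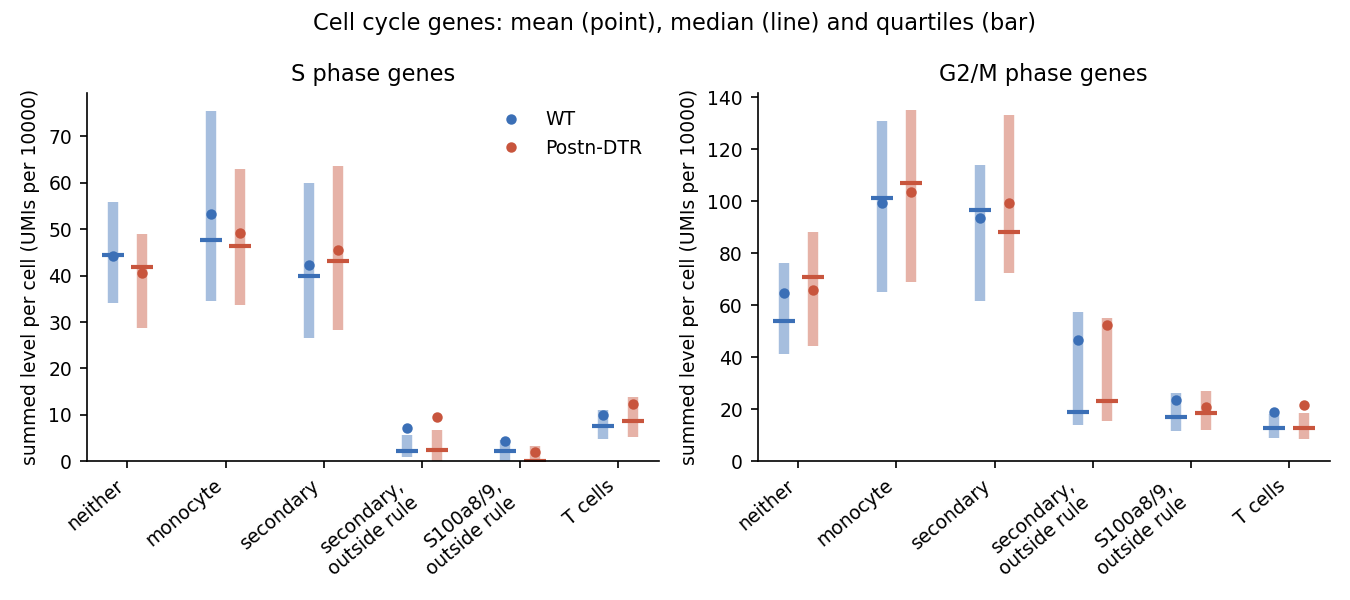
Summed level per cell of the S phase genes (left) and G2/M phase genes (right) in UMIs per 10000, for the 3 ranges of complete precursors, for secondary granule and *S100a8* and *S100a9* cells outside the rule, and for T cells. Points are means, lines medians and bars quartiles over cells (WT blue, *Postn*-DTR red). The 3 precursor ranges have mean S phase sums of 40.6 to 53.3 in both libraries, and every other class is at 12.3 or less.

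Several secondary granule genes had higher levels in *Postn*-DTR precursors. Of 14 listed genes, all ranked in complete cells, 12 were above 0 and 4 past 2-fold higher, with a median log2 ratio of 0.53. Of all 7323 ranked genes in complete cells, 3318 were above 0, 0.587% were 2-fold higher and 0.478% lower, with a median of −0.03. *Chil3*, a chitinase-like protein of neutrophils and macrophages (chromosome 3, 106147554 to 106167564), was in 59 of 97 WT cells and 145 of 155 *Postn*-DTR cells, at 13 and 51.9 (medians 0.575 and 35.2). It was higher in *Postn*-DTR in each range, at 2.09 and 17.7, 3.68 and 34.0, and 38 and 88.4, beside 0.0169 and 0.0698 in T cells. *Lcn2*, an iron-siderophore binding protein of secondary granules, was at 0.57 and 5.85 in the range with neither and 0.56 and 10.7 in the monocyte-gene range, but at 67.4 and 78.9 in the secondary granule range (0.0278 and 0.104 in T cells). In the range with neither, 1 cell held over 25% of the *Postn*-DTR UMIs of *Chil3*, and *Lcn2* passed the same limit. The *Postn*-DTR means of both genes in that range thus rest in part on single cells. Every complete *Postn*-DTR cell held *Lcn2*, and 67 of 97 WT cells did. *Ltf*, lactoferrin, went the other way in the secondary granule range, at 23 and 10.9. In that range 0.802% of 3493 ranked genes were 2-fold higher and 0.344% lower, and 2 of 13 ranked secondary granule genes were among the higher and 1 among the lower.

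Neutrophil genes were higher in the monocyte-gene range as well, but this range need not hold like cells in both libraries. It was cut on a sum that includes *F13a1*. This gene was itself higher in *Postn*-DTR in the range with neither (0.687 and 1.88) and in the secondary granule range (0.147 and 1.06). Within the monocyte-gene range 9 of 11 ranked monocyte precursor genes were below 0, with list sums of 81.1 and 64.1. The part of the cut in the values below was not tested. Of 4735 ranked genes there, 1.39% were 2-fold higher in *Postn*-DTR and 0.993% lower, and 6 of 8 ranked secondary granule genes and 4 of 8 ranked mature neutrophil genes were among the higher. *S100a9*, a subunit of calprotectin, was found in 2 of 30 WT cells and 40 of 61 *Postn*-DTR cells of this range, at 0.0211 and 23.3, beside 0.160 and 0.529 in T cells. *S100a8*, its partner, was at 0.458 and 24.4. In the range with neither the same genes were close (*S100a9* 24.2 and 33.1, *S100a8* 36.7 and 35.5). *Vcan*, a proteoglycan of classical monocytes, was at 0.0637 and 1.31 in the monocyte-gene range. *Il1r2*, the decoy receptor for interleukin 1, was at 0.44 and 2.04 over complete cells, and *Ccr1*, a chemokine receptor, at 0.126 and 0.547.

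Among the other genes with the highest ratios in complete cells, *Rbm3*, a cold-inducible RNA-binding protein (X chromosome, 8138975 to 8145880), ranged from 2.11 to 13 in WT cells (median 5.03) and from 11.6 to 33.4 in *Postn*-DTR cells (median 18.8), so that the 2 libraries barely overlapped. It was 4.77 and 17.3, 6.95 and 23.1, and 4.63 and 18.0 in the 3 ranges, and T cells also differed, at 7.02 and 15.1. *Hopx*, a homeodomain-only cofactor, was at 0.167 and 1.18, *Tgfbi*, a matrix protein of monocytes, at 0.836 and 2.73, and *Mmp8*, neutrophil collagenase, at 0.0465 and 0.374. *Stfa1*, *Spp1* and the unnamed transcript *Gm42047* completed the 10 highest. *Stfa1* belongs to a family of near-identical genes, and its value is uncertain. Over all chosen cells 2.0% of 7461 ranked genes were 2-fold higher and 0.550% lower, and the highest there were *Saa3* (0.103 and 33.2), *Apoe* (0.436 and 35.2) and *Alox15*, with 0 WT and 764 *Postn*-DTR UMIs, at least 189-fold higher against a floor of 3 counts over the group. All 5 ranked macrophage genes were among the higher, and they moved with the incomplete cells. That count was in part fixed by the ranking, which asked for 100 UMIs over both libraries. Complete cells supplied only 123 of the 7118 UMIs that the list reached over all chosen *Postn*-DTR cells. Within complete cells 1 of the 8 listed genes was ranked, and it was past 2-fold lower.

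Among the lowest ratios in complete cells was the inducible chaperone *Hspa1b*, found in 49 of 97 WT and 3 of 155 *Postn*-DTR cells (0.568 and 0.00477, beside 0.115 and 0.0485 in T cells). Its near-identical copy *Hspa1a* was at 0.376 and 0.0117, and reads could be split between them. The class II antigen presentation genes *H2-Ab1* (0.962 and 0.212) and *Cd74* (6.57 and 1.83) were lower too, and T cells showed the same order (2.09 and 0.235, 10.9 and 2.34). The part of RNA from other cells in these class II values was not tested. *Cd69*, an early activation receptor, was at 0.672 and 0.180, and *Ppic*, a cyclophilin of the secretory pathway, at 0.400 and 0.0595.

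All 14 ribosome biogenesis and MYC target genes were below 0 in complete cells, with a median of −0.38 and none past 2-fold, and *Fbl* and *Nme1* turned sign under another scaling. Of all 7323 ranked genes in complete cells, 4005 were below 0 and 3318 above, and 0.587% were 2-fold higher and 0.478% lower. In the secondary granule range the list was about level, with sums of 12.7 and 12.0 (−0.02 on summed UMIs, −0.12 to 0.08) and 3 of 9 ranked genes above 0. *Myc* itself was at 1.43 and 0.739, and nucleophosmin (*Npm1*) at 10.8 and 8.18. In the range with neither, of the 12 ranked granule processing genes 1 was past 2-fold lower, beside 0.893% of all ranked genes there. This gene was the endoplasmic reticulum chaperone *Hsp90b1* (15.5 and 7.10), and *Calr*, another such chaperone, was at 14.4 and 9.52. The immediate early gene *Fos* was at 12.9 and 5.73 there, and *Anxa1*, an anti-inflammatory annexin of granulocytes, at 6.64 and 13.8. Of the 16 genes of granule processing and congenital neutropenia, 14 were below 0 in complete cells (*Vps45* turned sign with the scaling), with a median of −0.26 and none past 2-fold. The 9 ranked cell cycle exit genes were above 0 over all complete cells (median 0.27), of which *Btg1* and *Btg2* turned sign with the scaling. The ranges did not share this. Above 0 were 7 of 9 ranked genes in the monocyte-gene range, 4 of 7 in the secondary granule range and 1 of 5 in the range with neither. *Cdkn1a*, an inhibitor of cyclin-dependent kinases, was at 1.36 and 3.37 in the monocyte-gene range and at 0.51 and 0.41 in the range with neither. The 6 NADPH oxidase genes, which make the superoxide of the phagocyte burst, were above 0 over all complete cells with a median of 0.43 (*Rac2* turned sign with the scaling), and *Cybb*, the catalytic subunit, was at 3.86 and 4.36. Their sums were 22.6 and 27.2 in the range with neither and 25.1 and 31.3 in the monocyte-gene range. In the secondary granule range they were about level, at 55.6 and 56.9 (−0.02 on summed UMIs, −0.07 to 0.02), with 4 of 6 genes above 0.

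Type I interferon genes were sparse. Of 12 listed, 3 were ranked and all 3 were lower in complete *Postn*-DTR cells, 2 of them past 2-fold (*Bst2* 1.28 and 0.58, *Ifi27l2a* 0.44 and 0.16). Of all ranked genes in these cells, 0.478% were 2-fold lower and 0.587% higher. Heme synthesis genes, which serve myeloperoxidase, had a median of −0.08 and glucocorticoid-induced genes one of −0.08. Growth factor receptors had a median of −0.05, with *Csf3r*, the receptor for granulocyte colony-stimulating factor, at 0.701 and 0.496. Homing and adhesion genes had a median of 0.00, with *Cxcr4*, which holds precursors in marrow, at 0.954 and 0.695 and the integrin *Itga4* at 0.907 and 0.667. Of the genes the study names for its leukocytes, *Rps21* was at 10.0 and 6.39, *Cd52* at 5.28 and 4.96, *Tmsb10* at 25.6 and 26.7 (0.06, a sign that turned with the scaling), and *Ly6d* at 0.422 and 0.131, past 2-fold lower (−1.18).

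Markers of other cells were checked in the complete precursors. No T cell, lymphoid progenitor or erythroid and megakaryocyte gene was ranked. Over all 7323 ranked genes, 0.587% were 2-fold higher in *Postn*-DTR and 0.478% lower, to be set beside the counts below. The summed T cell markers ranged from 0 to 8.47 in WT and from 0 to 7.45 in *Postn*-DTR, and the macrophage markers from 0 to 80.4 and from 0 to 7.24. Of 8 dendritic cell markers 2 were ranked, *Bst2* and *H2-Ab1*, both past 2-fold lower in *Postn*-DTR, and the summed list was 2.30 and 0.814 (range 0 to 15.9 and 0 to 6.81). In the monocyte-gene range, where the stem list differed most, that sum was 3.16 and 1.07, and its part in the stem list values was not tested. Plasma cell genes were higher in *Postn*-DTR, 4 of 5 ranked past 2-fold, with a median sum of 3.92 and 4.35 and a highest cell of 25 and 733. *Jchain* in T cells was at 0.873 and 1.99. The part of immunoglobulin RNA from plasma cells in the *Postn*-DTR values was not tested.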

How the data were processed

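The deposited matrices hold the natural log of 1 plus UMIs scaled to 10000 per cell, rounded by the authors to 3 decimals. Per the labels a 5′ kit was used, and the submitters' processing notes name Cell Ranger 6.0.0 and the mm10 build. The study's methods name a 3′ kit and an older Cell Ranger, and the step that made the log values is not given in the sources used here. Of 8686 WT and 5736 *Postn*-DTR barcodes, 8680 and 5734 passed the limits of 200 to 7500 genes, with median depths of 5618 and 8456 UMIs and 80175389 and 81027370 UMIs in all. The libraries shared 65 barcode sequences, of which 0 WT and 2 *Postn*-DTR cells were among those chosen.

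Values were back-transformed with Python 3.11.15 (numpy 2.4.6, pandas 2.3.3, scipy 1.17.1), and a level is the mean over cells in UMIs per 10000. Whole UMIs were recovered from each cell's smallest step (99.95% of WT and 99.89% of *Postn*-DTR values whole within 0.1) and used for sums, thinning and intervals. Intervals were exact Clopper-Pearson for shares, Katz for ratios of shares, and exact Poisson or conditional binomial for UMIs. With 1 library per group no count model was fitted. Doublets were called with Scrublet (scanpy 1.11.5), which marked 0 WT and 1 *Postn*-DTR chosen cells, and were kept. Named genes were the 10 highest and 10 lowest log2 ratios of ranked genes, leaving out immunoglobulin, T cell receptor, mitochondrial and globin genes and genes with over 25% of the UMIs of the higher library in 1 cell, together with genes of the lists. The members and gene lists were chosen with earlier results of these data known. Scripts were tested on simulated data.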

Additional observations from a re-analysis of the deposited data

How the results depend on the processing

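Of 109 alternatives over the 9 main values, 60 left the value within its counting error or within 1.5 times the main count, 41 moved it and 8 turned its direction. The ratio of shares of chosen cells (3.01) was 3.95 at a threshold of 10 and 4.37 among cells with low *Jchain*. The ratio of shares with secondary granule genes (1.17) was 0.789 at a threshold of 10. The stem gene list (log2 −0.94) was −1.14 at a threshold of 10, −0.81 at 40, −1.01 with at least 500 genes, −0.85 in complete cells, −0.81 without cells with 4 or more macrophage markers, −0.82 without cells with *Prss34* and *Cpa3*, −0.85 on summed UMIs, −0.77 with TMM scaling, −0.85 with totals without immunoglobulin, mitochondrial and ribosomal protein genes, −1.04 after thinning and −1.12 without secondary granule cells. In the same order, leaving out the settings that moved nothing, the S phase list (−0.30) was −0.58, −0.039, −0.27, −0.018, −0.12, −0.10, −0.026, −0.10, −0.33 and −0.49 (not moved by leaving out cells with *Prss34* and *Cpa3*). In the full order the G2/M list (−0.07) was −0.47, 0.15, −0.044, 0.16, 0.12, −0.043, 0.11, 0.19, 0.12, 0.00046 and −0.20, so it has no stable direction over all chosen cells. Genes 2-fold higher (149) were 295 at a threshold of 10, 58 at 40, 43 in complete cells, 65 without macrophage-marker cells, 79 on summed UMIs, 93 with TMM scaling, 90 with reduced totals and 41 after thinning. Genes 2-fold lower (41) were 142 at 10, 27 at 40, 27 on summed UMIs, 23 with TMM scaling, 11 after thinning and 109 with 0.02 added to both levels. The alternatives that left out incomplete or macrophage-marker cells moved these values by their own construction, and the cause of the other shifts was not tested. The split of complete cells, the set without macrophage-marker cells, the set without *Prss34* and *Cpa3* cells and the thinning to 10000 UMIs were chosen after the data had been seen. No paired analysis was possible because each group is 1 pooled library. At these depths, genes under about 1 UMI per cell, such as *Cd34*, rest on few UMIs.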
